A study of Rattus norvegicus with 9 samples.

Results

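Retinoids are the vitamin A derivatives that the testis needs to make sperm, and 8 genes that carry, bind, make or break them down were followed in cultured rat Sertoli cells of 3 ages. The genes were Rbp4, Aldh1a1, Aldh1a2, Dhrs3, Crabp1, Crabp2, Cyp26a1 and Cyp26b1. They were found by name on the array, each with 1 probe, and all 8 passed the filter on dim signals, as 8 of the 22455 genes tested. The cells came from testes of rats aged 5, 12 and 60 days, with 3 arrays per age. All 9 cultures had spent 4 days in a defined growth factor medium and then had 50 ng/ml oFSH and 1e-07 M testosterone in pulses over 11 h. No culture without the hormones was measured, so the comparisons ask how hormone-treated Sertoli cells differ between ages. Nothing in the labels tells whether the replicates of an age were separate animals or cultures, so p-values measure only the spread between these arrays.

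Retinol travels in blood bound to a carrier protein and enters cells, where dehydrogenases convert it to retinaldehyde and then to retinoic acid. Retinoic acid binds nuclear receptors that sit on DNA at paired half-sites, and cytosolic binding proteins and cytochrome P450 enzymes of the Cyp26 family control how much of it reaches them. In the mouse testis, retinoic acid made by Sertoli cells starts the differentiation of spermatogonia, and its timed rise and removal pace spermatogenesis.

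The promoter of Cyp26a1 is shown because it was the only one of the 8 promoters to hold a paired site of the kind retinoic acid receptors bind. The site searched was a direct repeat of the half-site AGGTCA or of its variants AGTTCA, then GGGTCA and lastly GGTTCA, in any pairing and on both strands, with a spacer of 5, 2 or 1 bases, within 250 bases before to 50 bases after the start of the gene (RefSeq, build GRCr8). The capitals mark a repeat with a 5-base spacer on the minus strand, at -92 to -76 relative to the start. The sequence shown is chr1:244883572-244883821 on the plus strand.
Cyp26a1 promoter: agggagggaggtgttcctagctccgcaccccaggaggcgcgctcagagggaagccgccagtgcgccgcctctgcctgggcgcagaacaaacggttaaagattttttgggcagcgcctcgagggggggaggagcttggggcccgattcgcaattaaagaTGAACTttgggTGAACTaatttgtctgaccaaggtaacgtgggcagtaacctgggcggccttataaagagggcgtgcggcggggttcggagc
Of 33469 rat promoters of this length, 0.382% held a repeat with a 5-base spacer, 0.17% one with a 2-base spacer and 0.233% one with a 1-base spacer. A single half-site was in 44.4% of promoters and in 2 of the 8 here, Aldh1a1 and Cyp26a1. A match is a description of the letters and not evidence of binding.

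The probes of close relatives were compared because the results set members of one family against each other. The first 30 of the 60 bases of 4 probes are shown, as the array files give them.
Crabp1 probe: caacgatgagctaatcctgacatttggcgc
Crabp2 probe: ccagagaggggcagactaccaaagctcaga
Aldh1a1 probe: gttactcatagaaaacatgtagcttaatcc
Aldh1a2 probe: cccacagtatagaatgtgaaaaggaagatt
Over their full length, the longest run shared by the Crabp1 and Crabp2 probes was 6 bases, and at best 19 of 60 bases were identical in an ungapped alignment. The same figures were 6 and 19 for Aldh1a1 and Aldh1a2, and 5 and 21 for Cyp26a1 and Cyp26b1. The Aldh1a1 probe shared a run of 5 bases with the probe of its close paralog Aldh1a7, with 23 of 60 identical. Probes were compared with probes only, and not with the transcripts of their relatives. The figures therefore do not tell whether a probe also binds the RNA of a relative. In the rn4 build, the files place the probes at chr1:223772858-223772917 (Aldh1a1), chr8:75771061-75771120 (Aldh1a2), chr5:163372171-163375160 (Dhrs3), chr1:241945651-241945710 (Cyp26a1), chr4:118735314-118735373 (Cyp26b1), chr8:58320823-58325131 (Crabp1), chr2:180033998-180034057 (Crabp2) and chr1:242443888-242443947 (Rbp4). The Dhrs3 and Crabp1 probes span 2990 and 4309 bases of the genome, more than their own length. The exon or intron at these positions was not looked up, for want of rn4 gene models.

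Levels are given as log2 of the signal over the array's 75th percentile, so that 0 is the level of a probe at that percentile, and a level is compared between ages for 1 probe and never between probes. A difference was called at an adjusted p under 0.05 from limma's moderated test with Benjamini-Hochberg adjustment over all genes tested, and only called genes are said to have risen or fallen. Arrays of 1 replicate number shared a slide, and their deviations moved together (correlations 0.181 to 0.601). Replicate 1 was also read on another scanner (G2505B, against G2505C) and with another software version than replicates 2 and 3. What the block takes out can therefore not be assigned to the slide alone. The value with the slide as a block is given for the 8 genes wherever it changes a call. Arrays of 1 age always lay at 1 position of the slide, so age and position cannot be told apart. Between 49.1% and 63.0% of probes per array were well above background. The number of arrays limits the precision.

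Retinoid genes took different courses between 5 and 12 days and between 12 and 60 days. At 12 days against 5 days, Aldh1a1, Crabp1 and Rbp4 rose and Crabp2 and Dhrs3 fell, 5 of 8, where 12.5% of all genes were called (6.13% higher and 6.32% lower). At 60 days against 12 days, Aldh1a1, Dhrs3 and Cyp26a1 rose and none fell, 3 of 8, where 25.3% of all genes were called (12.3% higher and 13.1% lower). At 60 days against 5 days, Aldh1a1, Crabp1 and Cyp26a1 rose and Crabp2 fell, 4 of 8, where 35.4% of all genes were called (17.3% higher and 18.1% lower). The F-test over the 3 ages called 6 of 8, all but Aldh1a2 and Cyp26b1, where it called 36.7% of all genes. The median log2 change of the 8 genes was 0.62, 1.03 and 0.47 in the 3 comparisons in this order, beside 0.05, -0.16 and -0.09 over all genes tested. The arrays of the ages did not overlap for 7 of 8 genes at 12 against 5 days, 4 at 60 against 12 days and 4 at 60 against 5 days, where 28.6%, 40.7% and 47.4% of all genes did not. The genes were chosen with results of these arrays known, so these shares describe them and say nothing of retinoid genes as a class. With the slide as a block, 6 genes were called at 60 against 12 days (4 higher, 2 lower) and all 8 by the F-test, where 34.2% and 47.3% of all genes were called.

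**Figure D1:**
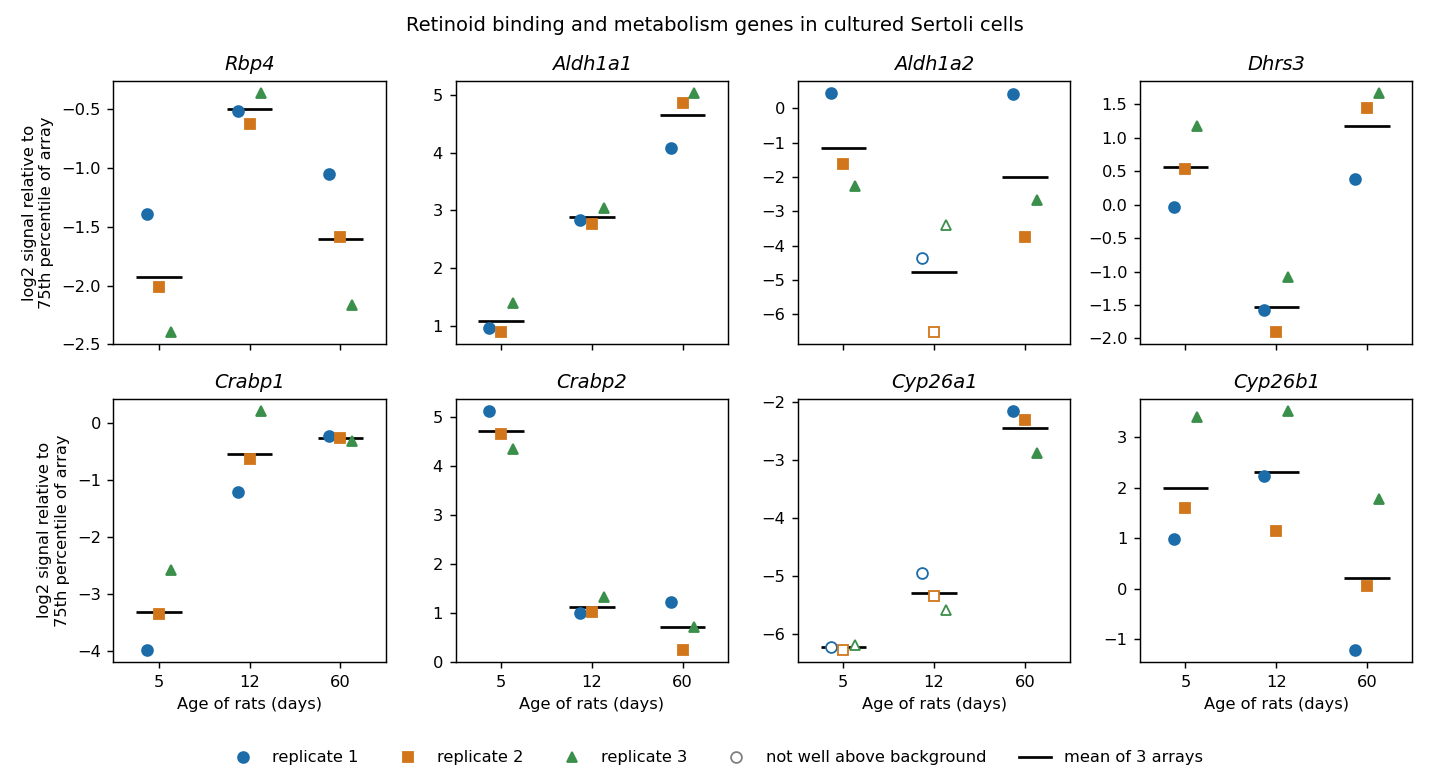
Log2 of the signal of the 8 retinoid genes over the array's 75th percentile (y axis, own range per gene) against the age of the rats in days (x axis). Each symbol is 1 array, open where the probe was not well above background, and the bar is the mean of 3 arrays. Crabp2 is high at 5 days only (4.36 to 5.14), Cyp26a1 is above background at 60 days only, Dhrs3 and Aldh1a2 are lowest at 12 days, and replicate 3 is the highest array of Cyp26b1 at every age.

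Among the cytosolic binding proteins, Crabp1 and Crabp2 moved in opposite directions between 5 and 12 days. Crabp2, which in other mammalian cells carries retinoic acid to its nuclear receptors, had levels of 5.14, 4.67 and 4.36 at 5 days, of 1.00, 1.01 and 1.32 at 12 days and of 1.22, 0.24 and 0.71 at 60 days, in the order of replicates 1 to 3 as in all lists below. All 5-day arrays lay above every array of the older ages, whose values overlapped each other. Crabp2 fell by 3.61 ± 0.36 (log2 difference and standard error) at 12 days against 5 days, 12.2-fold on the linear scale (adjusted p = 0.000148). At 60 days it was 16.0-fold lower than at 5 days (-4.00 ± 0.36, adjusted p = 1.06e-05). The difference between 60 and 12 days was -0.39 ± 0.36 (adjusted p = 0.481).

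Crabp1, a close relative that binds retinoic acid in the cytosol and is known in the mouse testis mainly from spermatogonia, ran the other way. Its levels were -3.99, -3.36 and -2.59 at 5 days, -1.21, -0.64 and 0.22 at 12 days and -0.23, -0.27 and -0.31 at 60 days. Every 5-day array lay below every array of the older ages, and the 60-day arrays lay within the range of the 12-day arrays. Crabp1 rose at 12 days against 5 days by 2.77 ± 0.45 (6.82-fold, adjusted p = 0.00235), by 2.78, 2.72 and 2.81 within slides 1, 2 and 3. At 60 days it was 3.05 ± 0.45 higher than at 5 days (8.26-fold, adjusted p = 0.000326). Between 60 and 12 days it differed by 0.28 ± 0.45 (adjusted p = 0.71), higher on 2 of 3 slides. The rise at 12 days was not called without replicate 2 (adjusted p = 0.06). In these bulk cultures, more or fewer cells of a type and more or less RNA per cell cannot be told apart. Spermatogonial markers, 8 on the array, had a summed signal, in units of the 75th percentile, of 18.9 to 30.8 at 12 days and 9.55 to 12.3 at 5 days. Of the 6 that passed the filter, 3 rose and 1 fell. The brightest was Uchl1 at 5 and 60 days and Sohlh1 at 12 days, and bright markers weigh most in a sum. Ddx4, Zbtb16 and Nanos3 were at background on all 5-day arrays, Zbtb16 at 12 days, and Zbtb16 and Nanos3 at 60 days. At 60 days, where Crabp1 was not called against 12 days, the sum of these markers was 66.5 to 89.1, against 18.9 to 30.8 at 12 days. Their part in the result was not tested.

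Of the enzymes that oxidise retinaldehyde to retinoic acid, Aldh1a1, the form known from mouse Sertoli cells, rose at each step. Its levels were 0.96, 0.88 and 1.39 at 5 days, 2.83, 2.77 and 3.04 at 12 days and 4.09, 4.86 and 5.04 at 60 days. The 3 ages did not overlap, and on every slide the level was higher at each later age. Aldh1a1 was 1.80 ± 0.35 higher at 12 days than at 5 days (3.49-fold, adjusted p = 0.00601) and 1.78 ± 0.35 higher at 60 days than at 12 days (3.44-fold, adjusted p = 0.00323). From the youngest to the oldest age the difference was 3.59 ± 0.35 (12.0-fold, adjusted p = 1.69e-05). Both single steps were not called without replicate 2 (adjusted p = 0.116 and 0.0829), while the difference between 60 and 5 days was called whichever array or replicate number was left out.

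Aldh1a2, which in the mouse testis is known from germ cells, had its lowest levels at 12 days and a wide spread. The levels were 0.45, -1.63 and -2.26 at 5 days, -4.36, -6.53 and -3.41 at 12 days and 0.43, -3.75 and -2.66 at 60 days. None of the 12-day arrays was well above background, whereas all arrays of the other ages were. The level at 12 days was at least 7.36-fold lower than at 5 days (means -4.77 and -1.15, adjusted p = 0.0597), which is no call, and the level at 60 days was at least 4.1-fold higher than at 12 days (means -1.99 and -4.77, adjusted p = 0.0954), also no call. Such a bound compares means of 3 arrays, not single slides. It counts the dim age at no less than the lowest signal that was well above background on the array. Here and below, an adjusted p beside a bound tests the difference between the means as recorded, not the bound. With the slide as a block both differences were called (adjusted p = 0.00921 and 0.0179), as was the F-test (0.00717, against 0.0534 without the block). The 12-day level was the lower one on 3 of 3 slides in both comparisons. It differed from 5 days by -4.81, -4.90 and -1.15, and the 60-day level differed from 12 days by 4.79, 2.79 and 0.75. The 60-day arrays overlapped the 12-day arrays. The 60-day array of replicate 1 stood highest of its age, and without it the difference between 12 and 5 days was called (-3.62, adjusted p = 0.0218). The F-test was called without that array (0.0251), without the 60-day array of replicate 2 (0.0369) or without the 12-day array of replicate 3 (0.046). Leaving out an array also moved values the other way. Without the 60-day array of replicate 1 the difference between 60 and 12 days was 1.56 (adjusted p = 0.296), so its bound rests on that array. Without the 12-day array of replicate 2 the difference between 12 and 5 days was -2.74 (0.17), and without the 5-day array of replicate 1 it was -2.82 (0.213). Between 60 and 5 days the difference was -0.84 ± 1.11 (adjusted p = 0.598).

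Dhrs3, the reductase that turns retinaldehyde back into retinol, had a trough at 12 days. Its levels were -0.03, 0.54 and 1.18 at 5 days, -1.58, -1.91 and -1.08 at 12 days and 0.39, 1.44 and 1.67 at 60 days. All 12-day arrays lay below all others, and the 5-day and 60-day arrays overlapped. Dhrs3 fell by 2.09 ± 0.45 at 12 days against 5 days (4.25-fold, adjusted p = 0.0115) and was 2.69 ± 0.45 higher at 60 days than at 12 days (6.47-fold, adjusted p = 0.00129). The first of these was not called without replicate 2 (adjusted p = 0.163) or replicate 3 (0.0563), and the second was called whichever array or replicate number was left out. Between 60 and 5 days it differed by 0.61 ± 0.45 (adjusted p = 0.333), higher on 3 of 3 slides.

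The enzymes that break down retinoic acid differed from each other. Cyp26a1, whose transcription is known to respond to retinoic acid through promoter sites of the kind shown above, was measured above background at 60 days only. Its levels were -6.21, -6.27 and -6.18 at 5 days and -4.94, -5.34 and -5.58 at 12 days, none of them well above background, and -2.14, -2.30 and -2.88 at 60 days, all well above it. Cyp26a1 was at least 3.0-fold higher at 60 days than at 12 days (means -2.44 and -5.29, adjusted p = 0.000119) and at least 2.98-fold higher than at 5 days (means -2.44 and -6.22, adjusted p = 8.4e-06). Both calls held whichever array or replicate number was left out. No fold is given between 12 and 5 days, since both ages were dim. The spermatid markers, 9 on the array, had a summed signal of 7.83 to 14.1 at 60 days, 0.319 to 0.45 at 12 days and 0.252 to 0.455 at 5 days, and those of spermatocytes, 10 on the array, 75 to 148 at 60 days, 5.32 to 5.91 at 12 days and 0.143 to 0.169 at 5 days. The part of either in the Cyp26a1 result was not tested.

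Cyp26b1, a second retinoic acid hydroxylase, which guards male germ cells from retinoic acid in the fetal mouse testis, had a wide spread between slides. Its levels were 0.99, 1.60 and 3.41 at 5 days, 2.24, 1.15 and 3.53 at 12 days and -1.21, 0.06 and 1.77 at 60 days. Replicate 3 was the highest array of each age, and the ages overlapped in all 3 comparisons. At 60 days the level was -2.10 ± 0.85 relative to 12 days (adjusted p = 0.100) and -1.79 ± 0.85 relative to 5 days (adjusted p = 0.131), neither of them called. Within slides it was lower at 60 days in 3 of 3 cases against either age, with differences of -3.45, -1.1 and -1.76 from 12 days and of -2.20, -1.54 and -1.64 from 5 days. With the slide as a block both differences were called (standard error 0.42, adjusted p = 0.00466 and 0.00738), as was the F-test (0.0056, against 0.137 without). Without the 60-day array of replicate 3 they were also called (adjusted p = 0.032 and 0.0369). Without that of replicate 1 they were -1.39 (0.294) and -1.09 (0.38), and without the 5-day array of replicate 3 the difference between 60 and 5 days was -1.09 (0.368). At 12 days against 5 days the difference was 0.31 ± 0.85 (adjusted p = 0.901).

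Rbp4, the plasma carrier of retinol, had its highest level at 12 days. The levels were -1.39, -2.01 and -2.40 at 5 days, -0.51, -0.62 and -0.36 at 12 days and -1.05, -1.59 and -2.17 at 60 days. The 12-day arrays lay above all others, and the 60-day and 5-day arrays overlapped. Rbp4 rose at 12 days against 5 days by 1.43 ± 0.39 (2.70-fold, adjusted p = 0.0344). This call was lost when any of 6 single arrays was left out, namely replicate 2 or 3 of 5 days, any of the 12-day arrays or replicate 2 of 60 days (adjusted p 0.0551 to 0.115), and without any one replicate number (0.0511 to 0.25). The F-test (adjusted p = 0.0289) failed without the same 6 arrays (0.0556 to 0.0879). At 60 days against 12 days the difference was -1.11 ± 0.39 (adjusted p = 0.0598), lower on 3 of 3 slides and called with the slide as a block (0.0259), without the 60-day array of replicate 1 (0.0304) or without the 5-day array of replicate 1 (0.0488). Between 60 and 5 days it was 0.33 ± 0.39 (adjusted p = 0.553).

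**Figure D2:**
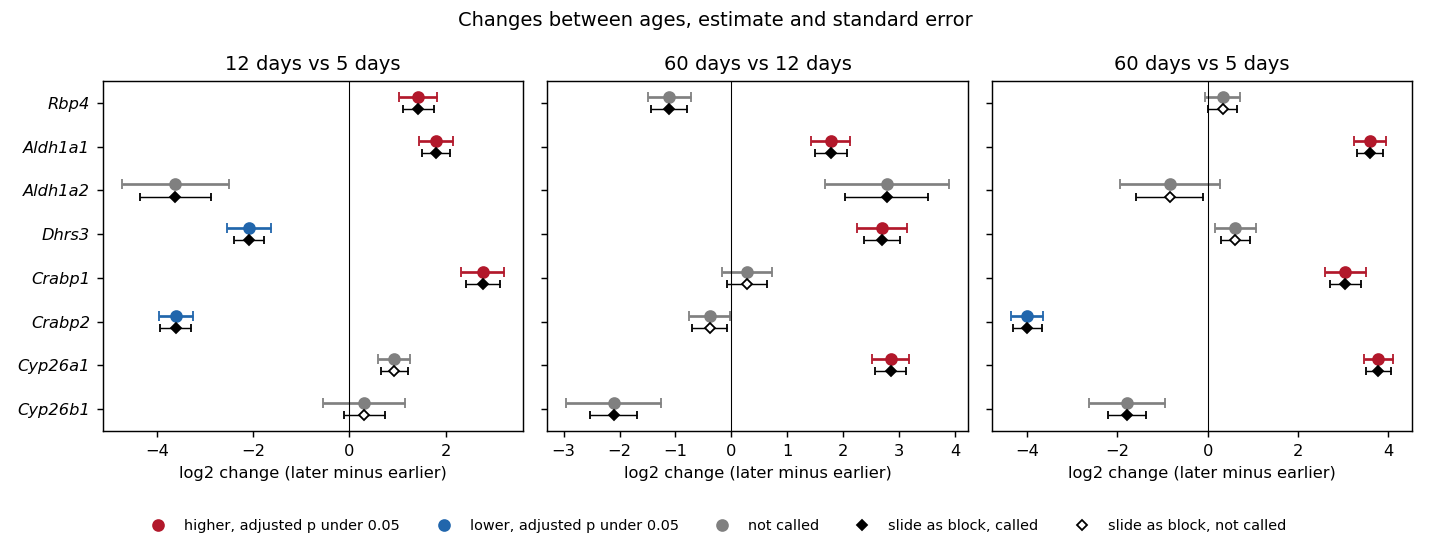
Log2 change of each gene between ages, later minus earlier, with its standard error, for 12 against 5 days (left), 60 against 12 days (middle) and 60 against 5 days (right). Circles are the fit without a block, red for higher and blue for lower where called, and diamonds the fit with the slide as a block, filled where called. Blocking leaves the estimates in place and narrows the error, most for Cyp26b1 (0.85 without and 0.42 with the block).

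The scale set the direction of some smaller differences. On 6 spike-in controls as the scale, in place of the 75th percentile, the median log2 change of all genes was -1.28 at 12 against 5 days, 0.80 at 60 against 12 days and -0.45 at 60 against 5 days. On that scale the falls of Crabp2 and Dhrs3 at 12 against 5 days were called too, as was the lower level of Aldh1a2 (-4.94, adjusted p = 1.86e-06), while the rises of Aldh1a1 (0.48, adjusted p = 0.655), Crabp1 (1.45, 0.235) and Rbp4 (0.11, 0.922) were not called. The rises of Aldh1a1, Dhrs3 and Cyp26a1 at 60 against 12 days were called on either scale. The higher level of Aldh1a2 in that comparison was called on the spike-in scale (3.74, adjusted p = 0.000376) and not in the main fit. The fit on the spike-in scale gave these genes the same standard error, 0.87, against 1.11 for Aldh1a2 and 0.36 for Crabp2 on the main scale. Its p-values therefore do not measure the spread of the single gene.

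Other genes of the pathway, 37 on a list, were read for context, of which 32 were found by name and 23 passed the filter. At 12 days against 5 days 1 of the 23 rose and 4 fell, with a median log2 change of -0.34. At 60 days against 12 days 4 rose and 2 fell (median 0.39), and at 60 days against 5 days 2 rose and 5 fell (median 0.11). With the slide as a block the counts were 7 higher and 5 lower at 60 against 12 days and 5 higher and 6 lower at 60 against 5 days, where 34.2% and 44.4% of all genes were called, and the F-test called 14, against 8 without. Those called at 60 against 12 days with the block only were Rdh10, Dhrs4 and Adh7 (higher) and Rarb, Rxra and Nrip1 (lower), with adjusted p of 0.0212 to 0.0477. At 60 against 5 days they were Ttr, Rdh10 and Adh7 (higher) and Rarb (lower), with adjusted p of 0.00237 to 0.0383. The unblocked counts of 6 and 7 of 23 were near the shares of all genes given above. At 12 against 5 days 5 of 23 were called, where 12.5% of all genes were. The F-test called 8 of 23 without the block and 14 with it, where 36.7% and 47.3% of all genes were called. The list was chosen with earlier results of these data known, so these counts describe it only.

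Of the genes for uptake and storage, Lrat, which stores retinol as esters, was well above background at 60 days only and at least 1.48-fold higher there than at 12 days (means -3.46 and -5.88, adjusted p = 0.00116). It was also called lower at 12 against 5 days (adjusted p = 0.0217), where both ages were dim. That call was lost without replicate 2 or 3 of 5 days or replicate 2 of 12 days (up to 0.0754). It was also lost without any single replicate number (0.0829 to 0.24). Lrp2, the endocytic receptor megalin, was at least 1.15-fold higher at 60 days than at 5 days (means -3.81 and -6.31, adjusted p = 0.00114), and at least 1.01-fold higher at 12 days than at 5 days (means -3.99 and -6.31, adjusted p = 0.00595), with 1 of 3 arrays of 12 days well above background. The call at 12 against 5 days was lost without replicate 2 (0.0786) or replicate 3 (0.078) and on the spike-in scale (0.99, adjusted p = 0.371).

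Of the enzymes that act on retinol or retinaldehyde, Aldh1a3, another retinaldehyde dehydrogenase, also had its lowest levels at 12 days. Its levels were -3.14, -3.20 and -3.41 at 5 days, -6.38, -6.37 and -5.06 at 12 days, none of them well above background, and -4.09, -2.28 and -2.01 at 60 days. Aldh1a3 was at least 1.71-fold lower at 12 days than at 5 days (adjusted p = 0.00925) and at least 2.35-fold higher at 60 days than at 12 days (adjusted p = 0.00184), and neither was called without replicate 2 (0.133 and 0.0558). Retsat, which saturates a bond of retinol, had levels of 0.53, 0.91 and 1.39 at 5 days, 1.30, 0.36 and 0.53 at 12 days and 2.19, 2.75 and 2.47 at 60 days. It rose at 60 days by 1.74 ± 0.37 against 12 days (adjusted p = 0.00594) and by 1.53 ± 0.37 against 5 days (0.00844). Neither was called without replicate 2 (0.135 and 0.113), nor the first without replicate 3 (0.0588). Adh4, an alcohol dehydrogenase, fell at 60 days by 1.07 ± 0.33 against 5 days (adjusted p = 0.0245). That call was lost without replicate 2 or 3 of 5 days or replicate 1 or 2 of 60 days (adjusted p up to 0.0751). It was also lost without any single replicate number (0.0848 to 0.124).

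Of the receptors, Rara differed by -0.10 ± 0.48, 0.14 ± 0.48 and 0.05 ± 0.48 in the 3 comparisons, in the order 12 against 5, 60 against 12 and 60 against 5 days, and was not called in any (adjusted p 0.871 to 0.952). Rxra was at least 1.74-fold lower at 60 days than at 5 days (means -5.76 and -3.82, adjusted p = 0.0126), where it was not well above background on any 60-day array. The call was lost without replicate 3 of 60 days (0.0506), and without the whole of replicate 1 (0.0617) or replicate 3 (0.0686). Rxrb was not called in any comparison. Rarb, by -1.13 ± 0.50 at 60 against 12 days (adjusted p = 0.129) and -1.18 ± 0.50 at 60 against 5 days (0.0924), was called with the slide as a block only (0.0315 and 0.0201). Fabp5, a fatty acid binding protein that can carry retinoic acid to another receptor, Ppard, had levels of 8.03, 7.55 and 7.41 at 5 days, 7.46, 7.45 and 7.74 at 12 days and 5.75, 5.69 and 5.53 at 60 days, with 1 saturated array at each of the younger ages, kept at its recorded value. Fabp5 fell at 60 days by 1.89 ± 0.31 against 12 days (adjusted p = 0.00104) and by 2.01 ± 0.31 against 5 days (0.000409), while Ppard was not called.

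Of genes known to respond to retinoic acid in other cells, Rarres2, which encodes chemerin, fell at each step. Its levels were 3.55, 3.44 and 2.51 at 5 days, 1.24, 2.00 and 0.75 at 12 days and -0.88, -1.12 and -2.13 at 60 days, without overlap between ages. It fell by 1.84 ± 0.47 at 12 against 5 days (adjusted p = 0.0268), fell by 2.71 ± 0.47 at 60 against 12 days (0.00164) and in all fell by 4.54 ± 0.47 at 60 against 5 days (2.69e-05). The first of these was not called without replicate 1 or 2 of 5 days or replicate 1 or 3 of 12 days (adjusted p up to 0.0993). Nor was it called without the whole of replicate 1 (0.21) or replicate 2 (0.124). A second Rarres2 probe differed by -1.21 ± 0.43, -0.65 ± 0.43 and -1.86 ± 0.43 in the same order, and was called at 60 against 5 days only (adjusted p = 0.00645). Tgm2, tissue transglutaminase, rose at 60 against 12 days by 1.34 ± 0.39 (adjusted p = 0.0294). That call was lost without replicate 1 or 3 of 12 days or replicate 1 or 2 of 60 days (adjusted p up to 0.0905). It was also lost without any single replicate number (0.0657 to 0.14). A 60-day array of Tgm2 was saturated and kept at its recorded value, and its F-test was called with the block only (0.0166, against 0.0538). Of 6 such genes found on the array, 3 did not pass the filter. On the spike-in scale the falls of Fabp5 (-0.93, adjusted p = 0.56) and Rarres2 (-1.74, 0.195) and the rise of Tgm2 (2.3, 0.0592) at 60 against 12 days were not called. Nor were the rises of Retsat (1.16, 0.432) and Lrp2 (2.13, 0.0728) and the fall of Adh4 (-1.44, 0.3) at 60 against 5 days.

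**Figure D3:**
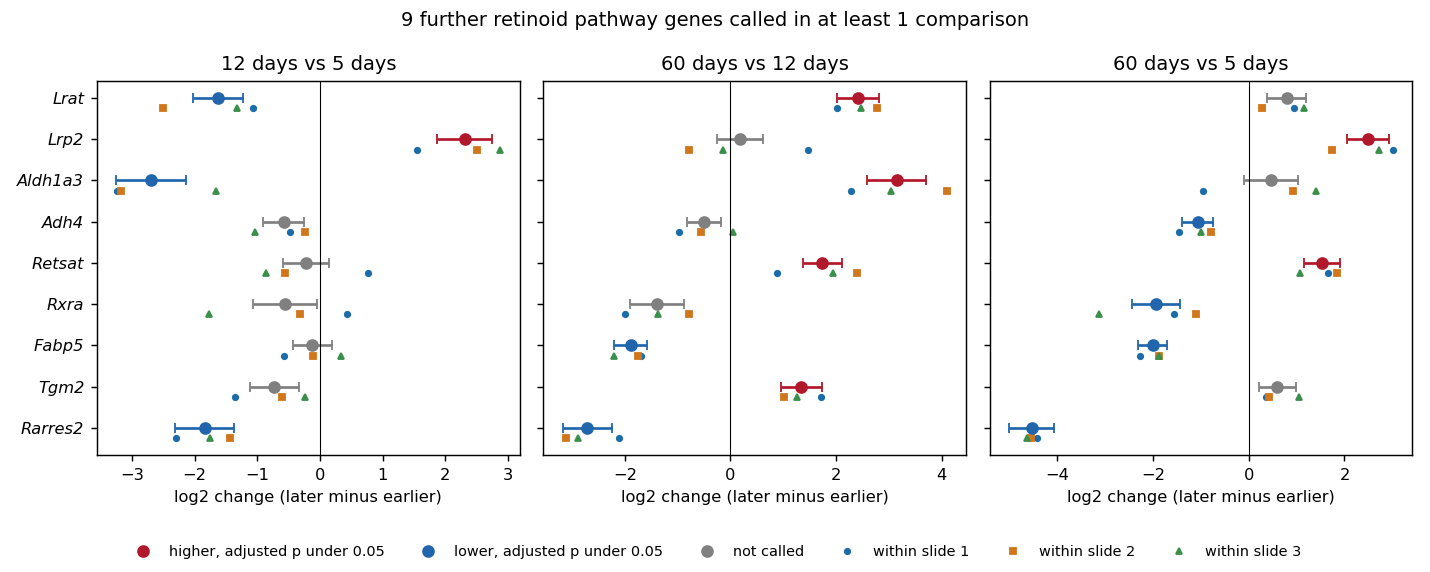
Log2 change between ages, later minus earlier, of 9 further pathway genes called in at least 1 comparison, for 12 against 5 days (left), 60 against 12 days (middle) and 60 against 5 days (right). Large circles give the estimate and its standard error, red for higher, blue for lower and grey for not called, and small symbols the difference within each slide. Rarres2 is lower in all 3 panels, and Aldh1a3 is lower at 12 days on every slide.

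Markers of other cell types were measured beside those of Sertoli cells, and their sums moved with age. Of the Sertoli markers, 14 were on the array, and each was well above background on at least 1 array of every age. Their summed signal was 45.1 to 48.9 at 5 days, 210.0 to 235.0 at 12 days and 307.0 to 335.0 at 60 days. Of them, 10 rose and 4 were not called at 12 against 5 days. At 60 against 12 days 4 rose, 1 fell and 9 were not called. The rise of Aldh1a1 thus ran beside rises of most of these markers in the first step and of 4 in the second. All 10 spermatocyte markers were at background at 5 days. At 60 against 12 days, 10 of 10 spermatocyte and 8 of 9 spermatid markers rose. Peritubular myoid and fibroblast markers, 9 on the array, summed to 484.0 to 846.0 at 5 days, 218.0 to 293.0 at 12 days and 32.8 to 168 at 60 days. At 12 against 5 days, when Crabp2 and Dhrs3 fell, 4 of these 9 fell, as did 7 of 8 macrophage markers (summed signal 2.09 to 2.45 at 12 days and 6.56 to 11.5 at 5 days) and 6 of 8 duct epithelium markers (13.7 to 15.3 at 12 days and 54.7 to 104 at 5 days). At 60 days, 3 macrophage and 3 duct epithelium markers rose and 2 duct epithelium markers fell against 12 days, when Dhrs3 and Aldh1a3 were higher. Leydig cell markers summed to 18.7 to 31.2, 5.56 to 9.46 and 11.5 to 15.6 at 5, 12 and 60 days, with Lhcgr and Cyp2a1 at background at all ages, and endothelial markers to 11.4 to 13.2, 9.92 to 17.0 and 3.57 to 6.87, with Pecam1 and Tek at background. The part of any of these cells in the changes of the retinoid genes was not tested.

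**Figure D4:**
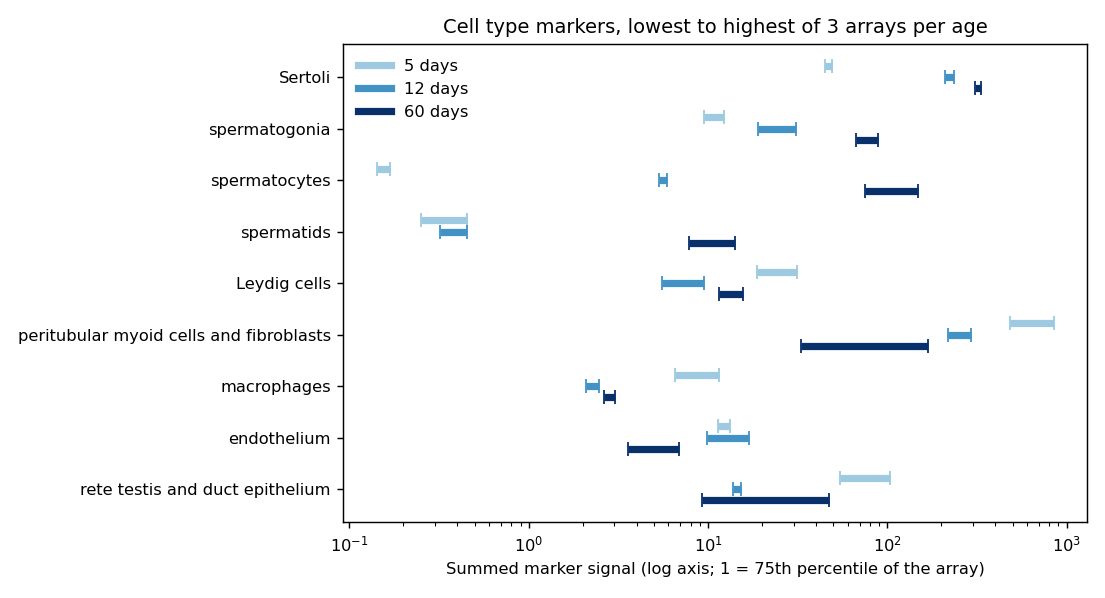
Summed signal of the markers of 9 cell types on a log axis, where 1 is the 75th percentile of the array, with each bar running from the lowest to the highest of the 3 arrays of an age. Sertoli and germ cell sums are higher at each later age, apart from spermatids, whose 5-day and 12-day ranges overlap, and peritubular sums are lower at each later age.

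The genes whose course was most like that of each retinoid gene were found by the root mean square difference of log2 levels over the 9 arrays, each gene centred on its own mean, among 11583 genes with a symbol. The nearest to Aldh1a1 were F11r, a tight junction molecule (0.20), Cgnl1, a junction scaffold (0.25), and Blnk (0.25), beside a spread of 1.49 for Aldh1a1 itself. The nearest to Crabp2 were Enpp6 (0.26), Wdr86 (0.30) and Erp27 (0.33), and the nearest to Crabp1 were Rhox4g, a reproductive homeobox gene (0.31), Hdc, histidine decarboxylase (0.39), and Pak3 (0.40). Dhrs3 was nearest to Sult5a1 (0.29), Ccdc159 (0.38) and Dpp7 (0.43). Cyp26a1 was nearest to Clu, the abundant Sertoli product clusterin (0.29), Usp2 (0.30) and Cryzl2 (0.30), a likeness that includes 6 arrays on which Cyp26a1 was not well above background. Rbp4 was nearest to Nr0b2, an orphan nuclear receptor (0.18), Tmprss4 (0.18) and Orc1 (0.20), beside its own smaller spread of 0.71. Cyp26b1 was nearest to Kcnd3 (0.39), Ocstamp (0.51) and Cdc25b (0.57). Aldh1a2 had the most distant neighbours of the 8, Tuba8 (0.88), Kcnh2 (1.15) and Emcn (1.18), beside its own spread of 2.11.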

How the data were processed

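Total RNA was labelled with Cy3 and hybridised to a rat whole-genome array, per the labels. The processed signal is an intensity corrected for background within the array, per the file headers (Feature Extraction 9.5.3.1 for replicate 1, 10.5.1.1 for replicates 2 and 3). The deposited series table holds log2 values that equal the log2 processed signal minus 1 constant per array, within 0.01 for at least 99.637% of probes. Replicate 2 files hold neither gene names nor mean spot signals.

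Of 41012 probes, 254 with a quality failure were dropped. Each array was scaled by its 75th percentile, which was an intensity of 149 to 435.4. The filter kept the 26599 probes that exceeded background clearly on 2 or more of the 3 arrays of any age, and the brightest stood for each gene, named through RefSeq (GRCr8) where possible. limma 3.58.1 in R 4.3.3 fitted 1 mean per age to all 9 arrays (6 residual and 4.636 prior degrees of freedom), with 2-sided tests. The step was tested on simulated data with independent errors and no slide effect, so that test does not cover the shared deviations of a slide. Deviations of arrays of different numbers correlated at 0.094 or less. They were taken from the mean of each age, which pulls these correlations down where those of the same number are positive. The low values are therefore no separate support for pairing by number. Genes to name were the 8 members, pathway genes called at least once and the 3 nearest genes per member, of which some results are not reported here. The members and lists were chosen with earlier results of these data known. Alternatives covered scaling, background, filter, probe choice, block and left-out arrays. The normexp background used replicates 1 and 3 only, with an offset of 50 added to the signals.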

Additional observations from a re-analysis of the deposited data

How the results depend on the processing

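With spike-in scaling, 3 members were called at 12 against 5 days. It called 2996 genes at 60 against 12 days, and 4084 genes and 4 further pathway genes at 60 against 5 days. The F-test called 5391. The split of calls turned to 89 higher and 2212 lower at 12 against 5 days, 2617 higher and 379 lower at 60 against 12 days and 1628 higher and 2456 lower at 60 against 5 days, beside 1376 and 1420, 2751 and 2932, and 3884 and 4058. Directions that turned were those of Cyp26a1 (-0.39) and Cyp26b1 (-1.02) at 12 against 5 days, Crabp2 at 60 against 12 days (0.57) and Rbp4 at 60 against 5 days (-0.03), none of them called on either scale.

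With the normexp background and 6 arrays, 4 genes, 0 members and 0 further pathway genes were called at 12 against 5 days, and 2 genes, 0 members and 0 pathway genes at 60 against 12 days. At 60 against 5 days it called 219 genes, 1 member (Crabp2) and 0 pathway genes, and by the F-test 102 genes, 1 member and 0 pathway genes. The same 6 arrays without normexp called 850, 2768, 4912 and 4623 genes. Some changes of members were smaller with it, such as Cyp26a1 at 60 against 12 days (0.33) and Crabp1 at 60 against 5 days (0.85), while Crabp2 at 60 against 5 days was -3.52. Probes well above background on all 9 arrays gave fewer genes to test and 1528 calls at 12 against 5 days (2 pathway genes), 3247 at 60 against 12 days, 4474 at 60 against 5 days and 4681 by the F-test. The replicate block called 6 members and 12 pathway genes at 60 against 12 days, and 11 pathway genes at 60 against 5 days and 14 by the F-test. It changed no call of a member other than those given above.

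With 1 array or replicate number left out, calls ran from 850 to 3078 genes, 1 to 6 members and 0 to 5 pathway genes at 12 against 5 days, from 2768 to 5699, 2 to 4 and 3 to 7 at 60 against 12 days, from 4912 to 7995, 4 to 5 and 4 to 9 at 60 against 5 days, and from 4623 to 7911, 4 to 7 and 4 to 9 by the F-test. Uncalled differences that turned were Cyp26b1 at 12 against 5 days without replicate 1 (-0.17), its 5-day array (-0.20) or the 12-day array of replicate 3 (-0.30), with a range of -0.30 to 1.01, Crabp1 at 60 against 12 days without replicate 1 (-0.08) or its 12-day array (-0.06), with a range of -0.08 to 0.68, and Aldh1a2 at 60 against 5 days without the 60-day array of replicate 2 (0.03), with a range of -2.06 to 0.03, or with normexp (0.27). Dim signals limit Cyp26a1 at 5 and 12 days and Aldh1a2 at 12 days. Rbp4 at 12 against 5 days was not called without the filter (adjusted p = 0.0606), and Aldh1a2 was called there on the 6 arrays of both ages alone (0.0315), both from limma. The causes were not tested.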

Other observations

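Stra6, the cell surface receptor for the retinol carrier, differed most between arrays of 1 age. Its 60-day levels were -4.86, -4.16 and 7.78 for replicates 1 to 3, the last of them saturated, beside -6.13, -6.54 and -5.63 at 12 days and -6.01, -4.33 and -3.59 at 5 days. No comparison called it, and at 60 against 5 days the difference was 4.23 ± 2.57 (adjusted p = 0.235 from limma with Benjamini-Hochberg adjustment). Without a second probe or array for that culture, the value stands alone.

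The carrier Ttr and the carotenoid cleaving enzyme Bco1 had 2 probes each that gave different results. The brighter probe of Ttr differed by 0.15 ± 0.80 at 60 against 12 days (adjusted p = 0.92) and the dimmer one by 3.65 ± 0.41 (adjusted p = 0.000102). For Bco1 the differences were -0.51 ± 0.66 (adjusted p = 0.629) and 1.87 ± 0.38 (adjusted p = 0.00438). These p values come from limma with Benjamini-Hochberg adjustment.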
